A study of Mus musculus with 9 samples.

Results

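The 40 genes described here encode the machinery that copies DNA in S phase and part of the enzyme set that supplies its deoxynucleotides. They are 4 origin licensing genes, the 6 subunits of the MCM2-7 helicase, 6 genes of helicase activation, 6 of the sliding clamp and its loader, 6 of the polymerases and primase, 3 of the single-strand binding protein RPA, 2 of Okazaki fragment joining, 4 of nucleotide supply, and E2f1 with both cyclin E genes. A feature was taken as a member when its gene name, with a trailing hyphen and 3 digits removed, was one of the listed symbols. All 40 symbols were found among the 20627 features of the deposited count table, and all 40 passed the filter on low counts that left 13311 genes for testing. Polyadenylated RNA was sequenced from RAW264.7 cells, a long-established mouse line with macrophage properties, in 3 groups of 3 libraries. HG cells were kept for 6 h at 35 mmol/l glucose, and HG-SIG cells had sitagliptin phosphate, an inhibitor of dipeptidyl peptidase 4, added to the same glucose for the same time. NC served as the control here, although the sources state neither its glucose concentration nor its time. No group had an osmotic control or sitagliptin without the glucose, so HG-SIG against HG is the comparison for the compound and HG against NC that for the glucose. Nothing in the labels says that the 3 libraries of a group were grown separately, so the spread that p-values rest on is that between these samples and may be technical.

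Origins are licensed in G1, when ORC, CDC6 and CDT1 load the MCM2-7 helicase onto DNA. At S phase entry CDC45 and the GINS complex join MCM2-7 to form the active helicase. Primase and polymerase alpha start each strand, and polymerases delta and epsilon, tethered by the PCNA clamp, extend it. The E2F family of transcription factors, released when cyclin D and cyclin E kinases phosphorylate the RB protein, is known for switching on many of these genes before S phase. In RNA from whole cultures, fewer cells in S phase and less RNA per cell cannot be told apart.

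Library totals ranged from 23285821 to 31571578 counts, and a member had between 552 and 16495 counts in a library. The median coefficient of variation of the 40 genes between replicates was 2.79% in NC, 2.74% in HG, with 2.84% in HG-SIG. HG replicate 3 differed most from its group, with a chi-square per gene of 8.18 and 8.94 against the other HG libraries and of 2.75 to 5.76 for the other replicate pairs. Without it, 25 members were called higher in HG against NC, of which 23 were also called with it, and 27 lower in HG-SIG against HG. All 10 macrophage markers checked were detected, while the markers of lymphocytes, epithelium, fibroblasts and endothelium reached at most 6 counts in any library. The summed level of the macrophage markers, in CPM (each library's counts scaled to a common total) by library size alone, was 10560 to 11000 in NC, 9788 to 10400 in HG, with 5664 to 5777 in HG-SIG. Of the 9 macrophage markers tested, 9 were called lower in HG-SIG than in HG, with a median log2 fold change of -0.72, and 8 were still called lower with library size alone. The part of this fall in the results below was not tested.

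The replication genes were modestly higher in HG than in NC, and 27 of them were called lower in HG-SIG than in HG, or 17 when libraries were scaled by their size alone. In HG against NC, 25 of the 40 were called higher and 1, Orc1, lower, at an adjusted p under 0.05 in edgeR's quasi-likelihood test. Of all genes in the test, 14.3% rose and 15.2% fell, 29.5% in all. The members' median log2 fold change was 0.14, against 0.00 for all genes. In HG-SIG against HG the 27 called lower stood beside 2 called higher, Prim2 and Ccne1, while 26.8% of all genes were called lower and 25.7% higher, 52.5% in all. The members' median was -0.24, against 0.01 for all genes. In HG-SIG against NC, 19 were called lower and 4 higher (Prim1, Prim2, Rfc5 and Ccne1), with 28.7% of all genes called lower and 29.9% higher, 58.6% in all. Changes were small: 0 of the 40 exceeded 1 on the log2 scale in any comparison, a size that 2.85%, 5.30% and 8.51% of all genes reached with a call in the 3 comparisons. The 3 libraries of each group did not overlap for 29, 33 and 26 members, in that order of comparisons, where 41.7%, 58.7% and 65.9% of all genes did not. The comparisons share libraries, and in particular a high HG level enters the first as well as the second of them.

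How libraries are scaled changed the counts for HG-SIG. Composition scaling with TMM gave HG-SIG libraries factors of 1.078 to 1.091, against 0.948 to 0.977 elsewhere. With library size alone the median gene stood 0.17 higher on the log2 scale in HG-SIG than in HG and 0.21 higher than in NC. The share of all calls that were higher then went from 48.9% to 76.9% in HG-SIG against HG, from 51.0% to 76.2% in HG-SIG against NC and from 48.4% to 58.9% in HG against NC. All 25 higher calls and the Orc1 call of HG against NC were kept with library size alone, where 28 members and 18.6% of all genes were called higher. Of the 27 lower calls in HG-SIG against HG, 17 were kept, and 8 members were called higher, while 13.7% of all genes were called lower and 45.8% higher. Of the 19 lower calls in HG-SIG against NC, 5 were kept (Orc1, Cdc6, Cdt1, Gins1 and Mcm10), and 20 members were called higher. These counts lie near the shares over all genes under that scaling, 15.9% called lower and 51.0% higher. Changing the scaling shifts all genes by nearly the same amount, so a member's place against the median of all genes is fixed by construction: 34 of 40 members lay below that median in HG-SIG against HG. Levels and fold changes below are TMM-scaled CPM unless another scale is named, and changes are relative to the bulk of genes.

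**Figure D1:**
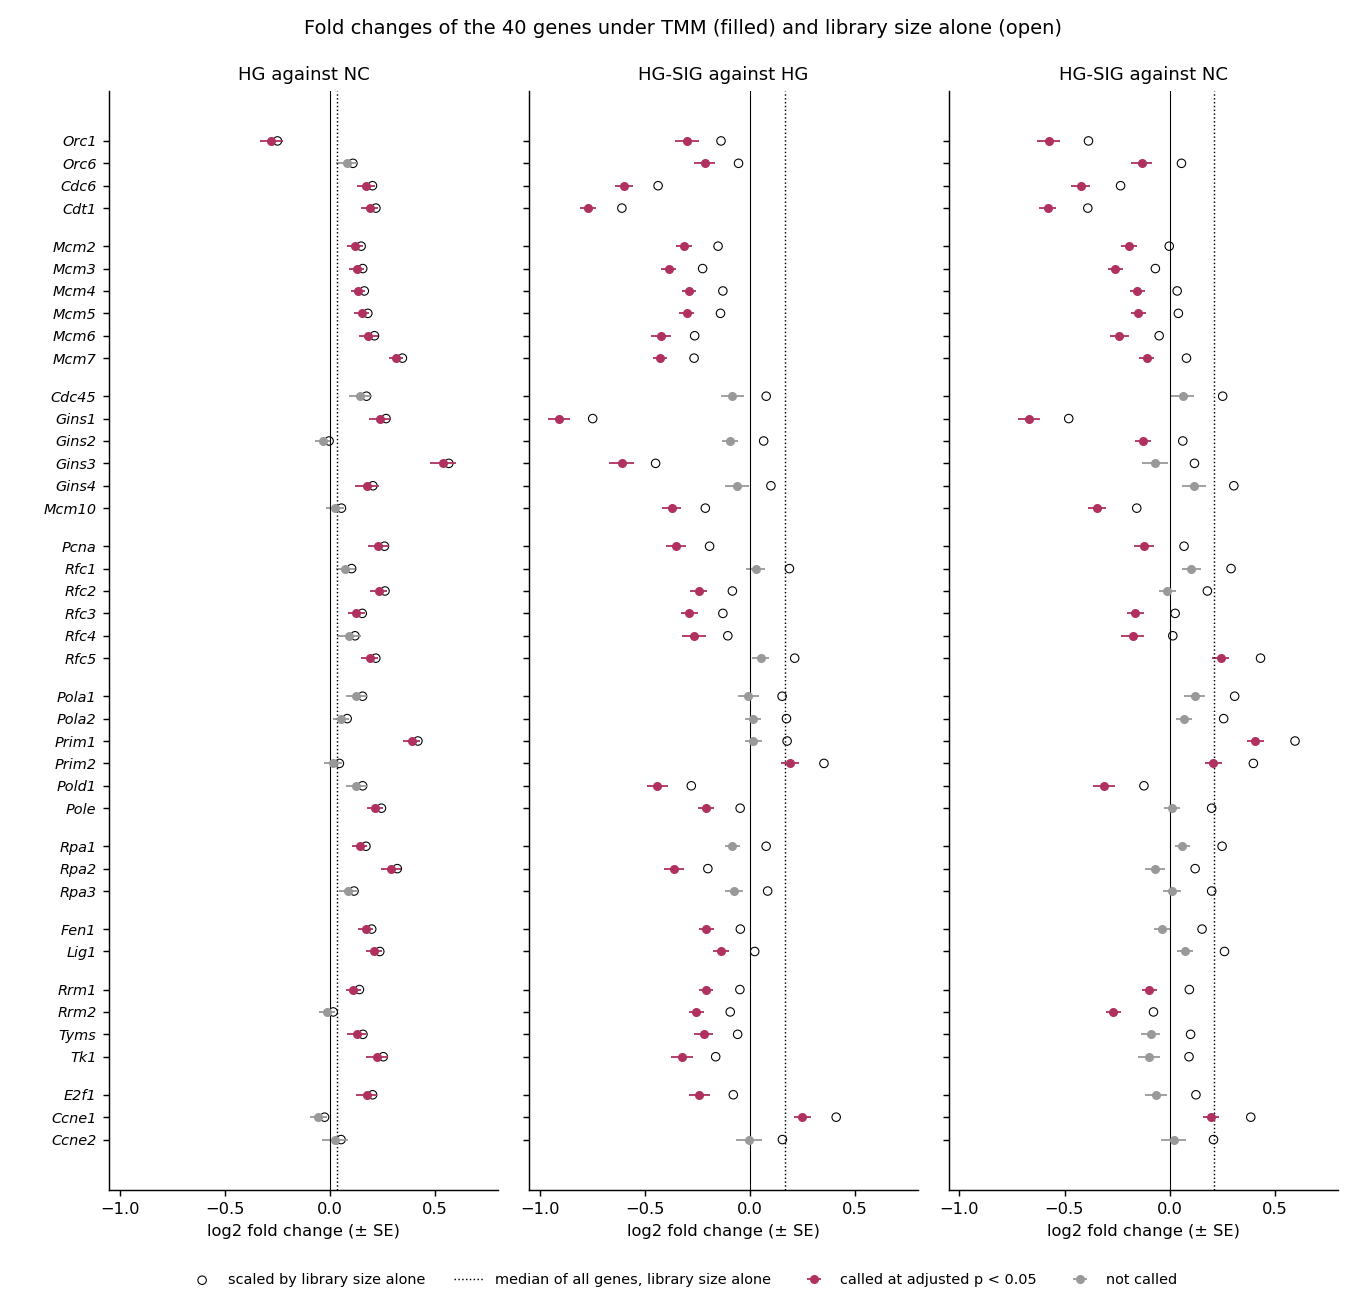
Log2 fold changes of the 40 genes in the 3 comparisons on the x axis, grouped by role on the y axis. Filled points are TMM-scaled values with their standard error, coloured where called at an adjusted p under 0.05; open points are values with library size alone, and the dotted line is the median of all genes under that scaling. In HG-SIG against HG, 27 filled points are called lower and 34 of 40 open points lie left of the dotted line.

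The promoters show which of these genes carry the letters usually given for an E2F site. Windows from 250 bases before to 50 bases after the RefSeq start (GRCm38.p6) were matched by symbol for 32 members, and Mcm4, Gins1, Gins2, Gins4, Rfc2, Prim2, Pole and Ccne2 had none. TTTCCCGC, TTTCGCGC, TTTGCCGC and TTTGGCGC were searched on both strands. A match occurred in 12 of the 32 members, or 37.5%, and in 2.6% of all 27025 genes with a window. The CCAAT box (CCAAT) occurred in 62.5% of members with a window and in 41.06% of all genes, and the GC box (GGGCGG) in 75.0% and 38.2%. The cell cycle homology region (TTTGAA or TTCGAA) occurred in 18.8% of members and 21.66% of all genes. Below are 30-base stretches of the licensing genes with a match, of Gins3, of 3 helicase subunits and of Pold1 and Rfc3, which include members with the largest changes. Each is read on the gene's strand, and capitals mark the match.
Orc1, chr4:108579416-108579445, plus strand: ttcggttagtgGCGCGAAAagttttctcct
Cdc6, chr11:98908002-98908031, plus strand: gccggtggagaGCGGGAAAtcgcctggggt
Cdt1, chr8:122568035-122568064, plus strand: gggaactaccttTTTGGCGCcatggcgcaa
Gins3, chr8:95633507-95633536, plus strand: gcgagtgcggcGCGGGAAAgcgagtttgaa
Mcm5, chr8:75109347-75109376, plus strand: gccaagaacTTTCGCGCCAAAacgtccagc
Mcm6, chr1:128359795-128359824, minus strand: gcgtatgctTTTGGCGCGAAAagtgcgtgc
Mcm7, chr5:138171849-138171878, minus strand: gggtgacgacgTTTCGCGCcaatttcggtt
Pold1, chr7:44548766-44548795, minus strand: cacggcggcgtatcttgtgGCGGGAAAagc
Rfc3, chr5:151651195-151651224, minus strand: gcacgcTTTCGCGCtcGCGGGAAAactcta
In Mcm5 and Mcm6 the capitals hold overlapping matches on opposite strands, and Rfc3 has a pair of matches within 20 bases of its start. The Cdt1 match lies 33 bases after the start, and the Orc1 match ends 20 bases before it. Mcm3, Lig1 and Pola1 were the other members with a match. Described by their counts only, 11 of the 12 genes with a match were called lower in HG-SIG against HG, with a median log2 fold change of -0.40; with library size alone 9 were called lower and 1 higher (median -0.24). Of the 20 without one, 12 were called lower and 1 higher, with a median of -0.21, or 6 lower and 5 higher with library size alone (median -0.05). Of the 8 with no window, 4 were called lower and 1 higher, or 2 and 2 with library size alone. Over all genes tested, 26.8% were called lower and 25.7% higher, or 13.7% and 45.8% with library size alone. In HG against NC, 9 genes with a match were called higher and 1 lower. Of those without a match 11, and of those with no window 5, were called higher there, beside 14.3% of all genes. A match is a run of letters, and no binding was measured.

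By median, the licensing genes fell furthest of the role groups in HG-SIG, and Orc1 parted from the rest in HG. All 4 were called lower in HG-SIG than in HG (median -0.45) and lower than in NC (median -0.50). With library size alone the lower calls kept were Cdc6 and Cdt1 against HG and those 2 with Orc1 against NC, while Orc6 against NC turned to 0.06 higher and was not called. Cdt1 (ENSMUSG00000006585, chromosome 8, 122568015 to 122573554, mm10) loads MCM2-7 together with CDC6 and is destroyed as S phase starts. It stood at 88.3, 92.9 and 95.3 CPM in NC, 104, 108 and 103 in HG, with 62.6, 60.1 and 62.3 in HG-SIG. Every HG library lay above NC and every HG-SIG library far below both. The log2 fold changes were 0.19 ± 0.04 (SE; adjusted p = 0.0029) in HG against NC, -0.77 ± 0.04 (adjusted p = 9.8e-09) in HG-SIG against HG and -0.58 ± 0.04 (adjusted p = 8e-08) in HG-SIG against NC. The value in HG-SIG against HG was -0.61 with library size alone.

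Cdc6 (ENSMUSG00000017499, chromosome 11, 98907801 to 98923940), the ATPase that recruits CDT1 and the helicase to ORC, followed the same order. Its CPM were 61.7, 66.5 and 60.1 in NC, 72.1, 69.1 and 70.9 in HG, with 47.1, 47.4 and 45.8 in HG-SIG. The groups did not overlap, with HG highest and HG-SIG lowest. It changed by 0.17 ± 0.04 in HG against NC (adjusted p = 0.0089) and by -0.60 ± 0.04 in HG-SIG against HG (adjusted p = 2.4e-07). Orc1 (ENSMUSG00000028587, chromosome 4, 108579423 to 108614833), the largest ORC subunit, was the exception in HG. Its CPM went from 28.4, 27.3 and 27.1 in NC to 22.3, 21.7 and 24.5 in HG and 18.6, 18.4 and 18.6 in HG-SIG, a step down at each group. Orc1 fell by 0.28 ± 0.06 in HG against NC (adjusted p = 0.0021) and by 0.30 ± 0.06 in HG-SIG against HG on the log2 scale (adjusted p = 0.00077), the latter -0.14 and not called with library size alone. Of its exon length, 10.8% overlaps Gm12743 on the opposite strand, and the strand setting of the counting is not given, so its counts may include reads of that gene. Orc6, the smallest ORC subunit, was not called in HG against NC (0.08 ± 0.05, adjusted p = 0.27).

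**Figure D2:**
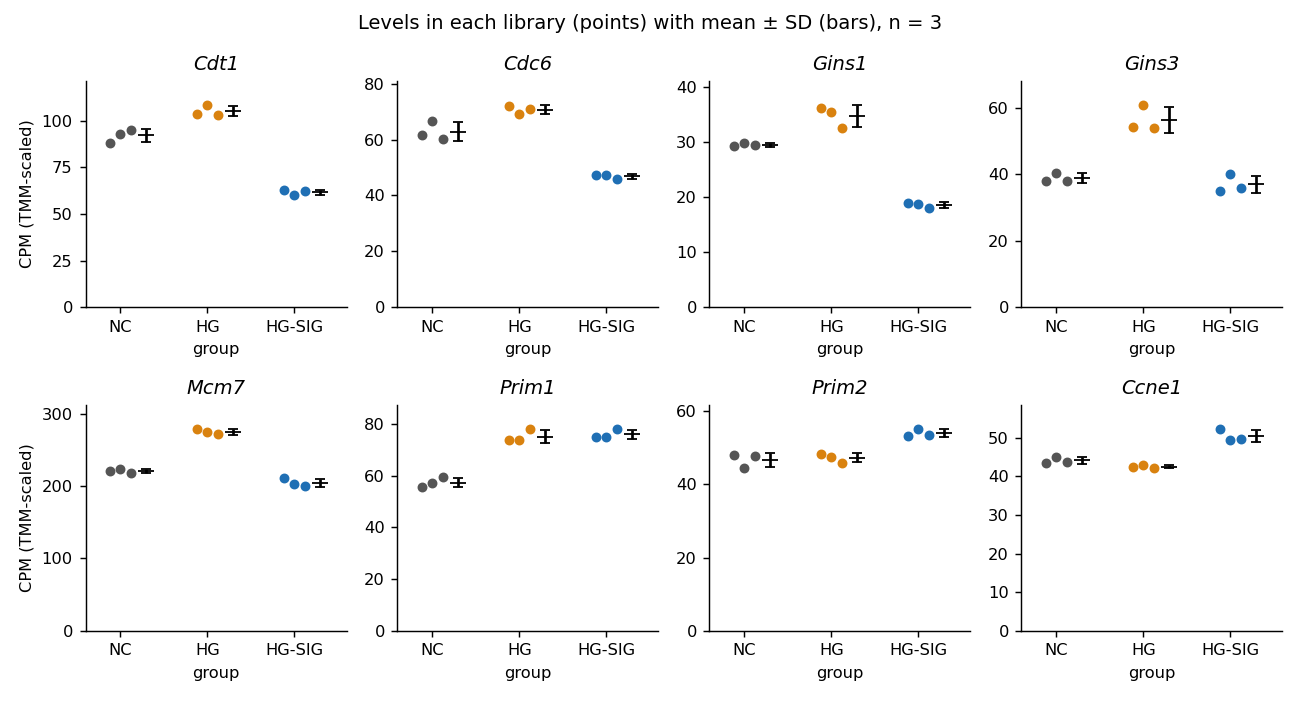
TMM-scaled CPM on the y axis for 8 members by group on the x axis; points are libraries and bars the mean ± SD of the 3 libraries. Cdt1, Cdc6 and Gins1 lie lowest in HG-SIG, Gins3 and Mcm7 are high in HG only, Prim1 is high in HG and HG-SIG, and Prim2 and Ccne1 are high in HG-SIG only.

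The 6 subunits of the MCM2-7 ring, the motor that unwinds DNA at the fork, moved together. All 6 were called higher in HG than in NC, by 0.12 to 0.32 on the log2 scale, and all 6 lower in HG-SIG than in HG, by -0.43 to -0.29. These calls held with library size alone, where the median in HG-SIG against HG was -0.19. Against NC all 6 were called lower in HG-SIG, by -0.26 to -0.11, but with library size alone the other 5 were not called and Mcm7 turned to 0.08 and was called higher. Mcm7 (ENSMUSG00000029730, chromosome 5, 138164583 to 138172422) moved most in HG. It stood at 221, 224 and 218 CPM in NC, 279, 274 and 272 in HG, with 211, 204 and 199.5 in HG-SIG. The HG libraries lay well above the others, and the HG-SIG libraries lay just below NC. Mcm7 rose by 0.32 ± 0.03 in HG against NC (adjusted p = 1.6e-05) and fell by 0.43 ± 0.03 in HG-SIG against HG (adjusted p = 5.6e-07).

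Mcm3 had the lowest adjusted p of the ring in HG-SIG against NC. Its CPM were 293, 309 and 299 in NC, 336, 327 and 321 in HG, with 251, 255 and 247 in HG-SIG, so the HG-SIG libraries lay below every other. The change was -0.26 ± 0.04 in HG-SIG against NC (adjusted p = 4.2e-05), and -0.07 and not called with library size alone. In HG against NC, Mcm3 rose by 0.13 ± 0.04 (adjusted p = 0.016), a call that ended without NC replicate 1, NC replicate 3 or HG replicate 1 (adjusted p = 0.073, 0.051 and 0.063). The Mcm2 call ended without the same 3 libraries (adjusted p = 0.11, 0.11 and 0.13), and that of Mcm4 without NC replicate 1 (adjusted p = 0.053). Mean CPM of the other subunits went from 224 ± 6.11 in NC to 243 ± 8.35 in HG and 196 ± 5.2 in HG-SIG for Mcm2, and from 215 ± 5.66 to 236 ± 5.3 and 193 ± 2.29 for Mcm4 (SD, n = 3). Mcm5 went from 304 ± 3.84 to 338 ± 9.47 and 274 ± 8.61, and Mcm6 from 359.6 ± 23.9 to 408 ± 5.38 and 304 ± 8.19. Within each library the proportions of the ring varied little. Of the summed TPM of the 6 genes, a length-corrected level, Mcm2 took between 8.04% and 8.66% and Mcm5 between 19.8% and 21.1% in every library, while Mcm7 took 13.3% ± 0.305 in NC, 14.7% ± 0.105 in HG, with 14.1% ± 0.160 in HG-SIG.

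The genes that turn the loaded ring into an active helicase did not move as a unit. GINS is a tetramer of 1 copy each of the proteins of Gins1 to Gins4, and its genes split. Gins1 (ENSMUSG00000027454, chromosome 2, 150905400 to 150931280) had the lowest fold change of all 40 members in HG-SIG. Its CPM were 29.2, 29.8 and 29.4 in NC, 36.1, 35.5 and 32.5 in HG, with 19, 18.6 and 18 in HG-SIG. No library of one group overlapped another, and the HG-SIG libraries were far below NC. The change was 0.24 ± 0.05 in HG against NC (adjusted p = 0.0034), -0.91 ± 0.05 in HG-SIG against HG (adjusted p = 2.6e-08; -0.75 with library size alone) and -0.67 ± 0.05 in HG-SIG against NC (adjusted p = 2.8e-07; -0.48 with library size alone).

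Gins3 (ENSMUSG00000031669, chromosome 8, 95633453 to 95645060) had the highest fold change of the 40 in HG. It stood at 37.9, 40.5 and 38.1 CPM in NC, 54.2, 60.7 and 53.9 in HG, with 35, 40 and 35.7 in HG-SIG. The HG libraries were clear of the others, and HG-SIG overlapped NC. Gins3 rose by 0.54 ± 0.06 in HG against NC (adjusted p = 2.5e-05) and fell by 0.61 ± 0.06 in HG-SIG against HG (adjusted p = 3.9e-06; -0.45 with library size alone). HG-SIG against NC was -0.07 ± 0.06 (adjusted p = 0.34). Gins2 and Gins4 changed less in HG against NC and in HG-SIG against HG. Gins2 was at 54.9, 58.5 and 57.6 CPM in NC, 55.3, 55.9 and 55.9 in HG, with 51.8, 53.8 and 50.9 in HG-SIG. Gins2 was called lower in HG-SIG against NC (-0.13 ± 0.04, adjusted p = 0.014), but with library size alone it turned to 0.06 and was not called. The NC and HG libraries of Gins2 overlapped, and 67.3% of its exon length overlaps Gse1 on the opposite strand, so its level is uncertain. Gins4 was called higher in HG against NC (0.18 ± 0.06, adjusted p = 0.036), a call that was lost without NC replicate 2 or 3, HG replicate 2 or 3 or HG-SIG replicate 2 (adjusted p = 0.051 to 0.13). In HG-SIG against HG it was -0.06 ± 0.06 (adjusted p = 0.40). In HG-SIG against NC it was 0.12 ± 0.06 (adjusted p = 0.099), or 0.31 and called with library size alone.

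The share of each GINS gene in the summed TPM of the 4 does not depend on how libraries are scaled against each other. Gins1 took 24.5% ± 0.498 in NC, 24.6% ± 1.49 in HG, with 16.8% ± 0.292 in HG-SIG. Gins4 took 39.8% ± 1.85, 38.4% ± 1.67 and 47.0% ± 1.27, so that it made up nearly as much of the sum in HG-SIG as the other 3 genes together. How the genes compare with each other depends on the exon lengths behind TPM. Without length, mean CPM in HG-SIG was 46.2 for Gins4 and 52.2 for Gins2. Gins3 took 18.1% ± 0.688, 22.3% ± 0.858 and 18.7% ± 1.13, and Gins2 17.6% ± 0.752, 14.6% ± 0.386 and 17.5% ± 0.353. The 3 HG-SIG libraries did not overlap the other 6 for Gins1 or Gins4, nor the 3 HG libraries the other 6 for Gins2 or Gins3. A ratio of counts, chosen after the values were seen, says the same: Gins1 to Gins4 was 0.694 ± 0.0447 in NC, 0.723 ± 0.0744 in HG, with 0.401 ± 0.00969 in HG-SIG. Cdc45, which binds the ring with GINS, was not called in any comparison (0.15 ± 0.06, -0.08 ± 0.05 and 0.06 ± 0.05). Its HG against NC value was called without HG replicate 3 (0.19, adjusted p = 0.017). It was also called with library size alone, no filter or a replicate block (adjusted p = 0.021 to 0.047), and under limma (limma's adjusted p = 0.022). With library size alone, HG-SIG against HG turned to 0.08, not called, and HG-SIG against NC was 0.25 and called. Mcm10, a factor needed to activate the assembled helicase, was level between NC and HG at 80.1 ± 3.81 and 81.6 ± 1.85 CPM and fell by 0.37 ± 0.04 to 63.1 ± 2.18 in HG-SIG against HG (adjusted p = 1.7e-05; -0.21 with library size alone).

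**Figure D3:**
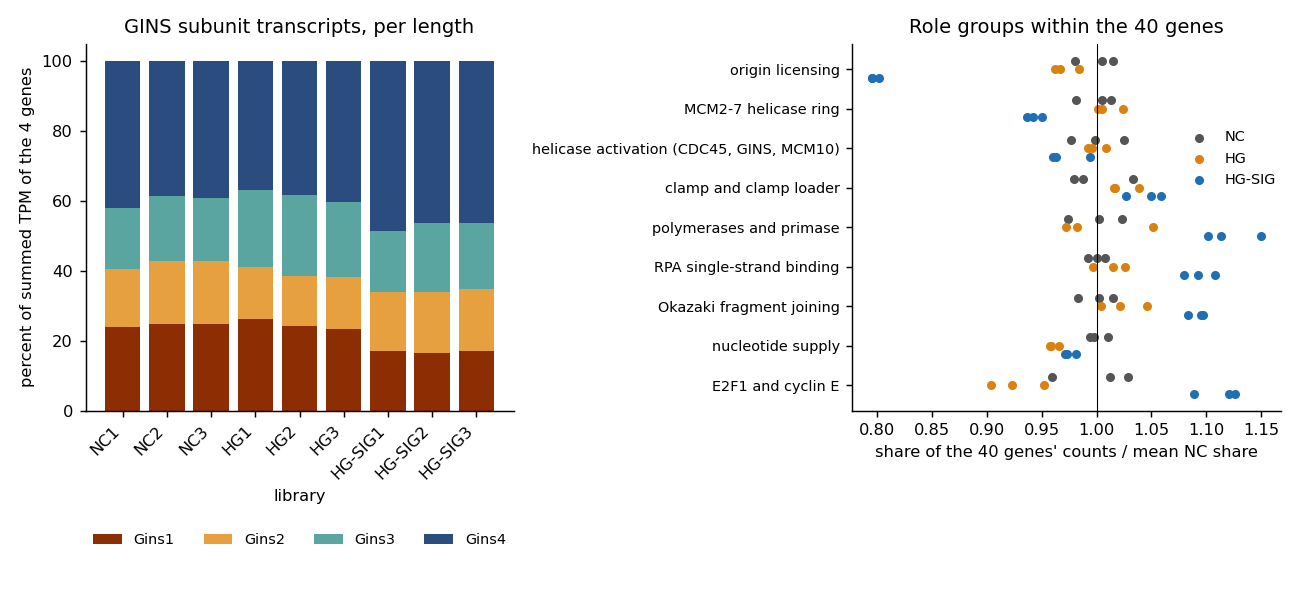
Left, the percent of the summed TPM of Gins1 to Gins4 (y axis) that each gene took in each of the 9 libraries (x axis). Right, the share of the 40 genes' counts that each role group took, divided by its mean NC share (x axis); points are libraries. Gins1 shrinks and Gins4 grows in the 3 HG-SIG libraries, and origin licensing drops while polymerases and primase rise. RPA, Okazaki fragment joining and E2F1 with cyclin E also rise there.

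The PCNA clamp and 3 of its 5 loader subunits fell in HG-SIG against HG, and Rfc5 and Rfc1 did not follow. Pcna, the sliding clamp that tethers polymerases to DNA, was the most abundant member per length, at 653 ± 23.3 TPM in NC, 783 ± 15.3 in HG, with 707 ± 35.2 in HG-SIG. On the CPM scale it stood at 509, 479 and 484 in NC, 574, 599 and 554 in HG, with 464, 469.6 and 420.1 in HG-SIG. HG lay above NC, and HG-SIG lay below both without overlap. Pcna rose by 0.23 ± 0.05 in HG against NC (adjusted p = 0.0029) and fell by 0.35 ± 0.05 in HG-SIG against HG (adjusted p = 5.9e-05; -0.19 with library size alone). HG-SIG against NC was -0.12 ± 0.05 (adjusted p = 0.046), turned to 0.07 with library size alone, and lost its call without NC replicate 1, 2 or 3, HG replicate 1 or HG-SIG replicate 1 or 3 (adjusted p = 0.052 to 0.21).

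The RFC complex opens the clamp and loads it. Rfc2 was at 81.9, 78.9 and 77.7 CPM in NC, 95, 90.8 and 94.6 in HG, with 80.2, 75.6 and 81 in HG-SIG. On this scale it was high in HG alone, but with library size alone it was also called higher in HG-SIG than in NC (0.18). It rose by 0.23 ± 0.04 in HG against NC (adjusted p = 0.00077) and fell by 0.24 ± 0.04 in HG-SIG against HG (adjusted p = 0.00026; -0.08 and not called with library size alone). Rfc5 went the other way in HG-SIG. Its CPM were 83.5, 89.5 and 81.8 in NC, 96, 99.6 and 94.9 in HG, with 102, 100 and 99.8 in HG-SIG, with each group above the one before. It was called higher against NC both in HG (0.19 ± 0.04, adjusted p = 0.0034) and in HG-SIG (0.24 ± 0.04, adjusted p = 0.0002), and was not called between them (0.05 ± 0.04, adjusted p = 0.29; 0.21 and called with library size alone). Rfc3 and Rfc4 fell by 0.29 ± 0.04 and 0.27 ± 0.06 in HG-SIG against HG (adjusted p = 7.5e-05 and 0.0014), values of -0.13, still called, and -0.10, not called, with library size alone. The Rfc3 rise in HG against NC (0.13 ± 0.04, adjusted p = 0.035) ended when any 1 NC library, HG replicate 1 or 2, or HG-SIG replicate 1 was left out (adjusted p = 0.053 to 0.12). Rfc1, the large subunit, was at 140.3 ± 3.71, 148 ± 9.56 and 151 ± 2.62 CPM and was called in no comparison, but with library size alone it was called higher in HG-SIG against HG (0.19) and against NC (0.29). Exons of Rfc2, Rfc4 and Rfc5 overlap Lat2, Eif4a2 and Wsb2 on the opposite strand over 15.1%, 12.7% and 10.7% of their length, so these 3 levels are uncertain.

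Primase, which makes the RNA primers, stood apart from the helicase genes. Prim1 (ENSMUSG00000025395, chromosome 10, 128015168 to 128030037), the catalytic subunit, was at 55.7, 57.1 and 59.4 CPM in NC, 73.7, 73.8 and 78.2 in HG, with 75.2, 75 and 78 in HG-SIG. Both treated groups lay well above NC and overlapped each other. Prim1 rose by 0.39 ± 0.04 in HG against NC (adjusted p = 1.2e-05) and by 0.41 ± 0.04 in HG-SIG against NC (adjusted p = 2.3e-06), and HG-SIG against HG was 0.02 ± 0.04 (adjusted p = 0.74), or 0.18 and called with library size alone. Prim2 (ENSMUSG00000026134, chromosome 1, 33453810 to 33669795), the regulatory subunit, was at 48, 44.5 and 47.7 CPM in NC, 48.5, 47.4 and 46 in HG, with 53.4, 55.2 and 53.6 in HG-SIG. NC and HG overlapped, and HG-SIG lay above both. It rose by 0.19 ± 0.04 in HG-SIG against HG (adjusted p = 0.002), 0.35 with library size alone.

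Pola1 and Pola2, the polymerase alpha subunits that extend the primers, were called in no comparison, with log2 fold changes between -0.01 and 0.13. Without HG replicate 1, Pola1 was called higher in HG against NC (0.18, adjusted p = 0.016), and without HG replicate 1 or 3 in HG-SIG against NC (0.12 in both, adjusted p = 0.028 and 0.026). With library size alone both were called higher in HG-SIG against HG (0.15 and 0.17) and in HG-SIG against NC (0.31 and 0.26). Pola1 was then also called higher in HG against NC (0.16). Pold1, the catalytic subunit of lagging strand polymerase delta, was at 92.5, 95.5 and 97.9 CPM in NC, 99.7, 101 and 111 in HG, with 77.8, 71.8 and 80.5 in HG-SIG. The HG-SIG libraries lay below all others. It fell by 0.44 ± 0.05 in HG-SIG against HG (adjusted p = 1.7e-05; -0.28 with library size alone) and by 0.31 ± 0.05 in HG-SIG against NC (adjusted p = 0.0002; -0.12 and not called with library size alone). Pole, the catalytic subunit of leading strand polymerase epsilon, was high in HG only under TMM scaling, at 77.6 ± 1.34, 90.2 ± 3.51 and 78.2 ± 1.35 CPM. With library size alone it was also called higher in HG-SIG than in NC (0.20). It rose by 0.22 ± 0.04 in HG against NC (adjusted p = 0.00092) and fell by 0.21 ± 0.04 in HG-SIG against HG (adjusted p = 0.00061), the latter -0.05 and not called with library size alone.

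Among the 3 subunits of RPA, which coats single-stranded DNA, the Rpa2 gene changed most. Rpa2 was at 82.4, 85.1 and 76.2 CPM in NC, 98.5, 104 and 96 in HG, with 75.4, 80.8 and 76.1 in HG-SIG. Only the HG libraries stood out on this scale, but with library size alone Rpa2 was also called higher in HG-SIG than in NC (0.12). It rose by 0.29 ± 0.05 in HG against NC (adjusted p = 0.00056) and fell by 0.36 ± 0.05 in HG-SIG against HG (adjusted p = 4.9e-05; -0.20 with library size alone). Rpa1, the large subunit, was at 216, 218 and 218 CPM in NC, 246, 232 and 241 in HG, with 228, 231 and 221 in HG-SIG. It rose by 0.14 ± 0.04 in HG against NC (adjusted p = 0.0083) and missed the threshold in HG-SIG against HG (-0.08 ± 0.03, adjusted p = 0.064; -0.11 and adjusted p = 0.037 without HG replicate 2). With library size alone Rpa1 turned to 0.08 in HG-SIG against HG, not called, and was 0.25 and called in HG-SIG against NC. Rpa3 was called in no comparison, with log2 fold changes of 0.09, -0.08 and 0.01, but with library size alone HG-SIG against HG turned to 0.09, not called, and HG-SIG against NC was 0.20 and called.

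Fen1, the nuclease that trims Okazaki fragments, and Lig1, the ligase that seals them, both rose in HG and fell a little in HG-SIG against HG, where Lig1 turned higher with library size alone. Lig1 was at 143, 154 and 151 CPM in NC, 171, 178 and 168 in HG, with 159, 156 and 155 in HG-SIG. The HG-SIG libraries lay between the other groups. It rose by 0.21 ± 0.04 in HG against NC (adjusted p = 0.0012) and fell by 0.14 ± 0.04 in HG-SIG against HG (adjusted p = 0.0088), a fall that turned to 0.02 with library size alone. Fen1 was at 131, 135 and 129 CPM in NC, 149.8, 151 and 143 in HG, with 130.3, 129.9 and 125 in HG-SIG. On this scale it was high in HG alone, but with library size alone it was also called higher in HG-SIG than in NC (0.15). Its changes were 0.17 ± 0.04 (adjusted p = 0.004) and -0.21 ± 0.04 (adjusted p = 0.00052), the latter -0.04 and not called with library size alone. The antisense gene Gm10143 covers 78.8% of the Fen1 exon length, so the Fen1 level is uncertain.

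Of the nucleotide supply genes, Rrm2 was level in HG and the other 3 rose. Ribonucleotide reductase makes deoxynucleotides from ribonucleotides, and RRM2 is its radical-bearing subunit, RRM1 its large one. Rrm2 was at 214, 221 and 219 CPM in NC, 213, 219 and 215 in HG, with 188, 173 and 181 in HG-SIG. NC and HG overlapped and HG-SIG lay below both. It changed by -0.01 ± 0.04 in HG against NC (adjusted p = 0.83), -0.25 ± 0.04 in HG-SIG against HG (adjusted p = 0.00011; -0.09 and still called with library size alone) and -0.27 ± 0.04 in HG-SIG against NC (adjusted p = 4.9e-05; -0.08 and not called). Rrm1 rose by 0.11 ± 0.03 in HG against NC (adjusted p = 0.028), a call lost without NC replicate 1 or 3 or HG replicate 1 or 2 (adjusted p = 0.053 to 0.094), and fell by 0.21 ± 0.03 in HG-SIG against HG (adjusted p = 0.00028; -0.05 and not called with library size alone).

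Tk1, the thymidine kinase of the salvage route, was at 111, 127 and 120.3 CPM in NC, 145, 143 and 129.8 in HG, with 111, 111 and 112 in HG-SIG. HG was highest, and HG-SIG overlapped the lowest NC library. Tk1 rose by 0.23 ± 0.05 in HG against NC (adjusted p = 0.0061) and fell by 0.32 ± 0.05 in HG-SIG against HG (adjusted p = 0.00024; -0.16 and still called with library size alone). Tyms, the thymidylate synthase of the de novo route, was at 62.7 ± 3.46, 68.4 ± 1.66 and 58.8 ± 1.42 CPM. Its rise in HG against NC (0.13 ± 0.05, adjusted p = 0.048) was lost without any 1 of 8 libraries, NC replicate 2 being the exception (adjusted p = 0.051 to 0.20). Its fall in HG-SIG against HG (-0.22 ± 0.04, adjusted p = 0.0013) was -0.06 and not called with library size alone.

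Cyclin E, which with CDK2 drives S phase entry, is encoded by Ccne1 and Ccne2, and Ccne1 went against most members. Ccne1 (ENSMUSG00000002068, chromosome 7, 38097984 to 38107534) was at 43.5, 45.1 and 43.9 CPM in NC, 42.4, 42.9 and 42.1 in HG, with 52.3, 49.5 and 49.8 in HG-SIG. HG lay just below NC and HG-SIG clearly above both. It changed by -0.05 ± 0.04 in HG against NC (adjusted p = 0.34), 0.25 ± 0.04 in HG-SIG against HG (adjusted p = 0.00017; 0.41 with library size alone) and 0.20 ± 0.04 in HG-SIG against NC (adjusted p = 0.00077; 0.39 with library size alone). Ccne2, with 17.4% of its exon length overlapping Ints8 on the opposite strand, was called in no comparison (0.02, -0.01 and 0.02). With library size alone it was called higher in HG-SIG against HG (0.16) and against NC (0.21). E2f1, an activator of the family described above, was at 43.9, 44.6 and 39.9 CPM in NC, 48.1, 48.7 and 47.9 in HG, with 38.7, 41.2 and 42.7 in HG-SIG. The HG libraries were the highest and HG-SIG overlapped NC. E2f1 rose by 0.17 ± 0.05 in HG against NC (adjusted p = 0.022; 0.099 without NC replicate 3 and 0.063 without HG replicate 2) and fell by 0.24 ± 0.05 in HG-SIG against HG (adjusted p = 0.0017), the latter -0.08 and not called with library size alone.

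**Figure D4:**
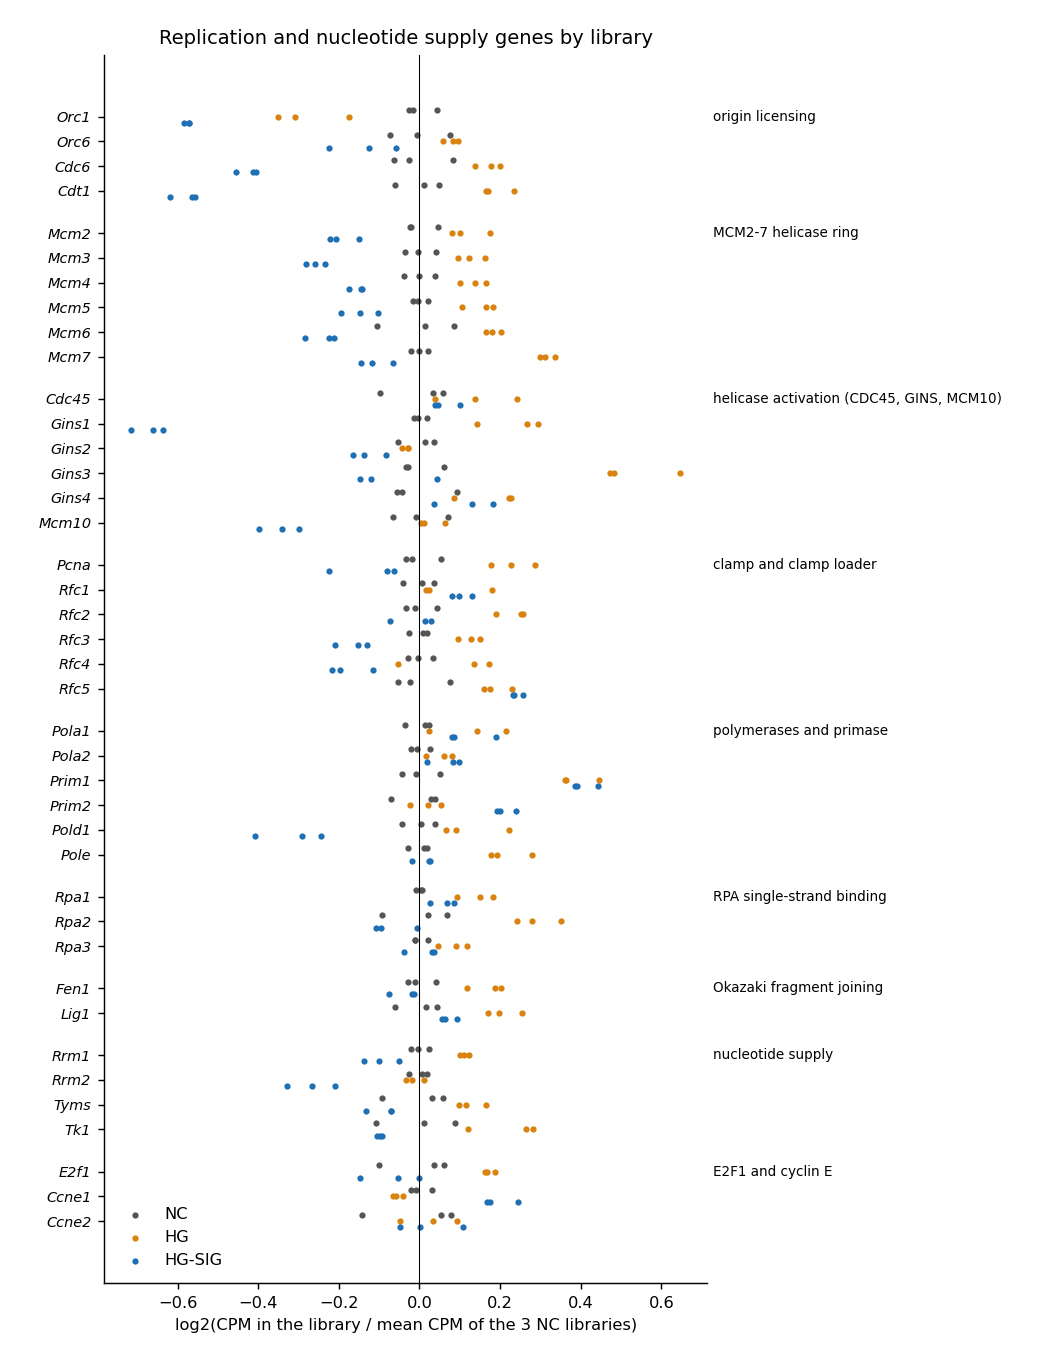
Level of each of the 40 genes in each library, as the log2 ratio of its TMM-scaled CPM to the mean of the 3 NC libraries (x axis), grouped by role. HG points lie to the right of NC for most genes, HG-SIG points lie to the left of HG for most, and Prim1, Prim2, Rfc5 and Ccne1, the 4 genes called higher in HG-SIG than in NC, are among those with all HG-SIG points right of zero.

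As a share of all counts in a library, the 40 genes took 0.478% ± 0.00554 in NC, 0.544% ± 0.00331 in HG, with 0.508% ± 0.00765 in HG-SIG, and the groups did not overlap. Shares within the members' own counts do not depend on how libraries are scaled, and there HG-SIG differed in makeup. Origin licensing took 4.61% ± 0.0823 in NC, 4.47% ± 0.0533 in HG, with 3.67% ± 0.0162 in HG-SIG. The MCM2-7 ring took 32.2% ± 0.527, 32.6% ± 0.394 and 30.4% ± 0.214. Polymerases and primase took 8.59% ± 0.212, 8.61% ± 0.371 and 9.63% ± 0.215. In all 3 of these role groups the HG-SIG libraries lay outside the range of the other 6. They also lay above the other 6 for RPA (6.63%, 6.71% and 7.24% in NC, HG and HG-SIG). The same held for Okazaki fragment joining (5.57%, 5.70% and 6.08%) and for E2F1 with cyclin E (3.21%, 2.97% and 3.57%). The ratio of Cdt1 to Prim1 counts, chosen after the values were seen, was 1.61 ± 0.0216 in NC, 1.40 ± 0.0732 in HG, with 0.811 ± 0.0186 in HG-SIG.

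Other genes of the same processes came from lists that hold none of the 40. Of all genes tested, 14.3% were called higher in HG against NC. In HG-SIG against HG, 26.8% of all genes were called lower and 25.7% higher, or 13.7% and 45.8% with library size alone. Of 30 other fork and chromatin assembly genes, 16 were called higher in HG against NC (median 0.13), and 14 lower and 2 higher in HG-SIG against HG (median -0.13), the latter 5 lower and 9 higher with library size alone. Timeless, a fork protection factor, and Uhrf1, which keeps DNA methylation through replication, had the lowest adjusted p among them in HG-SIG against HG, with falls of 0.77 ± 0.05 and 0.46 ± 0.04 (adjusted p = 1.4e-07 and 4.6e-07). Timeless was at 69.9 ± 2.9, 79.7 ± 5.54 and 46.5 ± 1.67 CPM. Of 15 other licensing and firing factors, 8 were called higher in HG against NC, and 4 lower and 3 higher in HG-SIG against HG, against 1 lower and 8 higher with library size alone. The HG-SIG against HG counts of these factors lie near the shares over all genes. Gmnn, whose protein geminin holds CDT1 inactive, fell by 0.38 ± 0.04 in HG-SIG against HG (adjusted p = 2e-06), and Orc2 fell by 0.25 ± 0.04 (adjusted p = 0.00021), though 29.8% of its exon length overlaps Nif3l1.

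Supply and control genes gave mixed counts. The shares over all genes in HG-SIG against HG are those given above. In HG against NC, 14.3% of all genes were called higher and 15.2% lower. Of 15 other deoxynucleotide supply genes, 10 were called lower and 3 higher in HG-SIG against HG (3 lower and 4 higher with library size alone). The lowest adjusted p were those of Dtymk, the thymidylate kinase (-0.49 ± 0.05, adjusted p = 2.1e-06), and Samhd1, which degrades deoxynucleotides (-0.25 ± 0.03, adjusted p = 7.5e-05). Of 19 genes of de novo purine and pyrimidine synthesis, 10 were called higher and 1 lower in HG against NC, and 13 were called lower in HG-SIG against HG (6 lower and 4 higher with library size alone). Adss, an enzyme of AMP synthesis, went from 318 ± 6.05 CPM in NC to 276 ± 4.99 in HG and 161 ± 6.86 in HG-SIG. Gart fell by 0.33 ± 0.04 in HG-SIG against HG (adjusted p = 1e-05), though 19.7% of its exon length overlaps Gm15964 on the opposite strand. Of 23 tested genes of the E2F and RB switch, 10 were called lower and 6 higher in HG-SIG against HG (7 and 12 with library size alone). Ccnd1, encoding cyclin D1, went from 641 ± 23.5 CPM in NC to 426 ± 17.5 in HG and 229 ± 9.35 in HG-SIG, and Cdk6, one of its partner kinases, from 243 ± 1.3 to 141 ± 5.67 and 99.7 ± 1.43. Exons of Ccnd1 overlap LTO1 on the opposite strand over 23.4% of their length, so the Ccnd1 level is uncertain. Ccnd1 and Cdk6 were both called lower at each step, unlike most of the 40 members, which were higher in HG than in NC.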

How the data were processed

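The authors deposited 1 table of gene counts with a column for each of the 9 libraries; all values were whole numbers (100%). Bowtie2 2.3.5, RSEM and mm10 are named in the submitters' processing notes, and counts estimated by RSEM may have been rounded before deposit. Neither the annotation release nor how strand was handled is given in the sources used. Groups and replicate numbers came from the sample titles, and the labels give 1 batch. The table held 1996 unannotated loci with 5.85% to 6.21% of a library's counts, which stayed in the tests. Ensembl identifiers were matched to GENCODE M21 (GRCm38, the assembly of mm10), 18591 of 18631, for coordinates, exon overlaps and the exon lengths behind TPM.

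After filterByExpr and TMM scaling, edgeR 4.0.16 (R 4.3.3) fitted 1 group-means model over all 9 libraries. Each comparison used the quasi-likelihood F-test with Benjamini-Hochberg adjustment over 13311 genes and a threshold of 0.05. All adjusted p in the text are edgeR's unless limma is named beside them, and the code was tested on simulated data. A standard error is the fold change over the square root of F. Values are mean ± SD over 3 libraries. Members, lists and tests were chosen with earlier results of these data known. Values in every library are given for the 3 highest and 3 lowest fold changes of each comparison, the lowest adjusted p in each role group and members called against their group, with Cdc6 added after its values were seen; of the other lists, the 2 genes with the lowest adjusted p in HG-SIG against HG are named, with those of the S-phase checkpoint and G2 lists in the closing section, except 1 that is not reported here.

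Alternatives were DESeq2 size factors, library size alone, no filter, DESeq2 1.42.0, limma 3.58.1 on log2(TPM + 1) as the series states, a replicate block, the 2 groups alone, and leaving out each library. Same-numbered libraries were not shown to be paired. A value counts as reversed where its sign changed and it was called before or after. Per the labels the replicates are separate samples; replicate pairs differed by 2.75 to 8.94 chi-square units per gene, so none was a copy. Counting intervals and floors would cover counting error only and are not given, since every member had at least 552 counts.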

Additional observations from a re-analysis of the deposited data

How the results depend on the processing

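Directions in HG against NC held for all called members under every alternative run. Members called higher there numbered 25, and 18 to 25 when 1 library was left out, with 1 called lower throughout; leaving out the 7 members whose exons overlap another gene over more than 10% of their length (added after seeing the data) left 22 higher and 0 lower, because Orc1 is among them. In HG-SIG against HG, 27 were called lower and 2 higher, and 27 to 28 and 2 without 1 library. Library size alone gave 17 lower and 8 higher, and limma on log2(TPM + 1) 14 and 13. In HG-SIG against NC, 19 were called lower and 4 higher, and 13 to 19 and 4 to 6 without 1 library, the 13 without HG-SIG replicate 3. Library size alone gave 5 lower and 20 higher, and limma 4 and 27. DESeq2 gave 22 higher and 1 lower, 2 and 28, and 4 and 19 in the 3 comparisons, and its size factors in edgeR 24 and 1, 2 and 29, and 4 and 19.

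Some log2 fold changes that were called before or after the change of setting turned sign. In HG-SIG against HG these were, with library size alone, Pola1 at 0.15, Lig1 at 0.024 and Ccne2 at 0.16, and under limma Pola1 at 0.19, Lig1 at 0.067, Ccne2 at 0.20, Cdc45 at 0.12, Gins2 at 0.11, Gins4 at 0.14, Rpa1 at 0.12 and Rpa3 at 0.13. In HG-SIG against NC, library size alone and limma in turn gave Orc6 0.057 and 0.10, Mcm4 0.036 and 0.082, Mcm5 0.042 and 0.088, Mcm7 0.080 and 0.13, Gins2 0.063 and 0.11, Pcna 0.069 and 0.11, Rfc2 0.18 and 0.22, Rfc3 0.026 and 0.071, Rfc4 0.015 and 0.061, Rpa2 0.12 and 0.17, Fen1 0.15 and 0.20, Rrm1 0.094 and 0.14, and E2f1 0.13 and 0.17. Limma also turned Mcm2 (0.044), Gins3 (0.16), Tyms (0.14) and Tk1 (0.14). Sign changes between values that were not called under either setting are not listed. These 2 settings leave out the composition factor, which by itself adds to every HG-SIG value.

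With the replicate number as a block, 27 members were called higher and 1 lower in HG against NC, 29 lower and 2 higher in HG-SIG against HG, and 20 lower and 5 higher in HG-SIG against NC. Deviations of same-numbered libraries from their group means correlated at -0.0027 to 0.0988, against -0.0768 to 0.0408 for other pairs, and since none passed 0.1 the numbers were not taken as pairs. A library correlated best with its own number in 13 of 18 cases, a hint of pairing from the data and not from the design. The calls lost when 1 library was left out had absolute log2 fold changes of 0.10 to 0.18.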

Other observations

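Genes of later cell cycle steps, from lists that hold none of the 40, showed a different order of groups. Of 25 genes of G2 and mitosis, 22 were called higher in HG against NC (median log2 fold change 0.21) and 18 in HG-SIG against NC (median 0.18), the latter 25 with library size alone. Of all genes tested, 14.3% and 29.9% were called higher in these comparisons, the latter 51.0% with library size alone. In HG-SIG against HG, 11 of the 25 were called lower and 3 higher (median -0.01), and 1 lower and 14 higher with library size alone. All genes gave 26.8% lower and 25.7% higher there, and 13.7% and 45.8% with library size alone. Ttk, a spindle checkpoint kinase, was at 67.1 ± 0.118 CPM in NC, 73.5 ± 1.36 in HG, with 84.2 ± 1.09 in HG-SIG (SD, n = 3), and rose by 0.20 ± 0.03 in HG-SIG against HG (adjusted p = 0.00033). Ccnb2, a mitotic cyclin, was high in HG only under TMM scaling, at 132 ± 6.83, 160.1 ± 8.36 and 132 ± 4.44 CPM. It fell by 0.28 ± 0.05 in HG-SIG against HG (adjusted p = 0.00044). With library size alone Ccnb2 was among the 25 genes called higher in HG-SIG against NC.

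Of 15 genes of the S-phase checkpoint and fork repair, 6 were called higher and 1 lower in HG against NC, and 6 lower and 3 higher in HG-SIG against HG, the latter 3 lower and 5 higher with library size alone. In HG against NC, 14.3% of all genes were called higher and 15.2% lower, and the shares for HG-SIG against HG are those given above. Brca1, a DNA repair gene, was at 56.6 ± 2.11, 60.4 ± 5.52 and 42.3 ± 1.73 CPM in the order NC, HG and HG-SIG, and fell by 0.51 ± 0.06 in HG-SIG against HG (adjusted p = 1.8e-05).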
